A study of Mus musculus with 6 samples.

Results

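The 9 genes described here encode fibronectin and the integrin subunits that pair into its cell-surface receptors, namely *Fn1*, the alpha subunits *Itga4*, *Itga5*, *Itga8* and *Itgav*, and the beta subunits *Itgb1*, *Itgb3*, *Itgb5* and *Itgb8*. They were chosen by their known role, and with earlier results of these data known, from 55421 genes in the count table. RNA was sequenced from 6 mouse retinas, 3 of control mice (Yapfl/fl, animals YR612, YR613 and YR615) and 3 from *Yap* cKO mice (Yapfl/fl;RaxCreERT2, animals YR711, YR713 and YR714). All 6 mice carried the floxed *Yap* alleles, were given 4-hydroxytamoxifen (4OH-T) on postnatal days 10 and 14, and were 2 months old at dissection. Control mice lacked the inducible Cre. Per the study, Cre in the postnatal eye of this line acts in Müller glia and in the non-pigmented epithelium of the ciliary body, so a whole retina also holds many cells without recombination. The comparison asks how the retinal transcriptome differs when YAP, a co-activator of transcription that works with TEAD factors, is deleted in those cells.

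Fibronectin is a secreted glycoprotein that cells assemble into fibrils of the extracellular matrix. An integrin receptor is a pair of 1 alpha and 1 beta subunit that spans the membrane and links such fibrils to the actin cytoskeleton. The alpha 5 beta 1 receptor drives fibril assembly, the alpha v and alpha 8 receptors also read the arginine-glycine-aspartate (RGD) loop of fibronectin, and the alpha 4 receptors read another, alternatively spliced stretch of it. In the retina, Müller glia and blood vessels carry beta 1 integrins, and the alpha v beta 5 receptor of the pigment epithelium takes part in the uptake of shed photoreceptor tips.

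The RGD codons of *Fn1* are shown because 3 of the 4 alpha subunits belong to receptors that bind this tripeptide. *Fn1* (ENSMUSG00000026193) lies on the minus strand of chromosome 1 of GRCm38, from 71585520 to 71653200. In its longest coding transcript, of 2477 codons and 46 exons, 2 in-frame RGD codon triplets were found. The first, at chr1:71606728-71606772 in exon 30, is the RGD loop named above. The second is at chr1:71597425-71597469 in exon 40, further downstream, and whether integrins bind it was not examined. Both are coding and are written 5′ to 3′ along the transcript, with the RGD codons in capitals.
Fn1 exon 30: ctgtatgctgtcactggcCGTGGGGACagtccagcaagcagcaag
Fn1 exon 40: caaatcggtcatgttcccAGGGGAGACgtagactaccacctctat
Of 17 annotated *Fn1* transcripts 9 are protein-coding, and 7 of these hold at least 1 RGD triplet, with 2176 to 2477 codons. Fragments were counted per gene, so the values below add up all of these forms.

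*Yap1*, the targeted gene, had 9.48, 9.52 and 9.83 TPM (a level scaled by exonic length and by the library's sum) in the control retinas and 3.99, 3.76 and 3.94 TPM in the *Yap* cKO retinas, which gave a log2 fold change of -1.36 ± 0.093 (SE). Totals lay between 24261799 and 35067068 counts per retina. Expression relative to the mean of all 6 retinas followed exonic length, with a sign that differed between retinas. Over tested genes, Spearman's rho with length was -0.42 in both YR612 and YR615 and -0.14 in YR714, against 0.19 in YR613, 0.42 in YR711 and 0.41 in YR713. The fold change between the groups rose with length (rho = 0.39 across genes, which are not independent replicates), and *Fn1*, *Itga4*, *Itgav* and *Itgb8* all lie in the highest of 10 equal classes of exonic length, whose median log2 fold change was 0.21. For these 4 genes a value corrected for this trend is given as well.

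All 9 genes passed the filter on low counts. To be called in edgeR's quasi-likelihood test across 16575 genes, a gene needed a p no higher than 0.05 after Benjamini-Hochberg adjustment, a change of 1.5-fold or more, and 5 TPM or more on average in either group. *Fn1* was the 1 gene of the 9 that was called, and it was higher in *Yap* cKO retinas. Among all tested genes 132 were called (0.796%), 35 of them higher (0.211%) and 97 lower (0.585%) in *Yap* cKO retinas. Of the 9 log2 fold changes 4 were positive and 5 negative, with a median of -0.03, against a median of 0.0017 over all tested genes. An unadjusted p under 0.05 was reached by 3 of the 9 genes, *Fn1*, *Itga4* and *Itgav*, and by 3549 of all tested genes (21.4%). In TPM the 2 groups did not overlap for 4 of the 9 genes, and for 24.3% of all tested genes. *Fn1*, *Itga4* and *Itgav* were higher in every *Yap* cKO retina than in every control retina, which held for 15.2% of all tested genes, and *Itgb5* was lower in every one, which held for 9.04%. All tested genes had a median log2 ratio of mean TPM of 0.059 between the groups, so small differences in TPM are read against that shift. On the scale of the test itself, counts scaled by library size and TMM factors, the same 4 genes did not overlap, in the same directions, and *Itgb1* too was lower in every *Yap* cKO retina. On that scale 12.3% of all tested genes were higher and 12.4% lower without overlap.

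**Figure D1:**
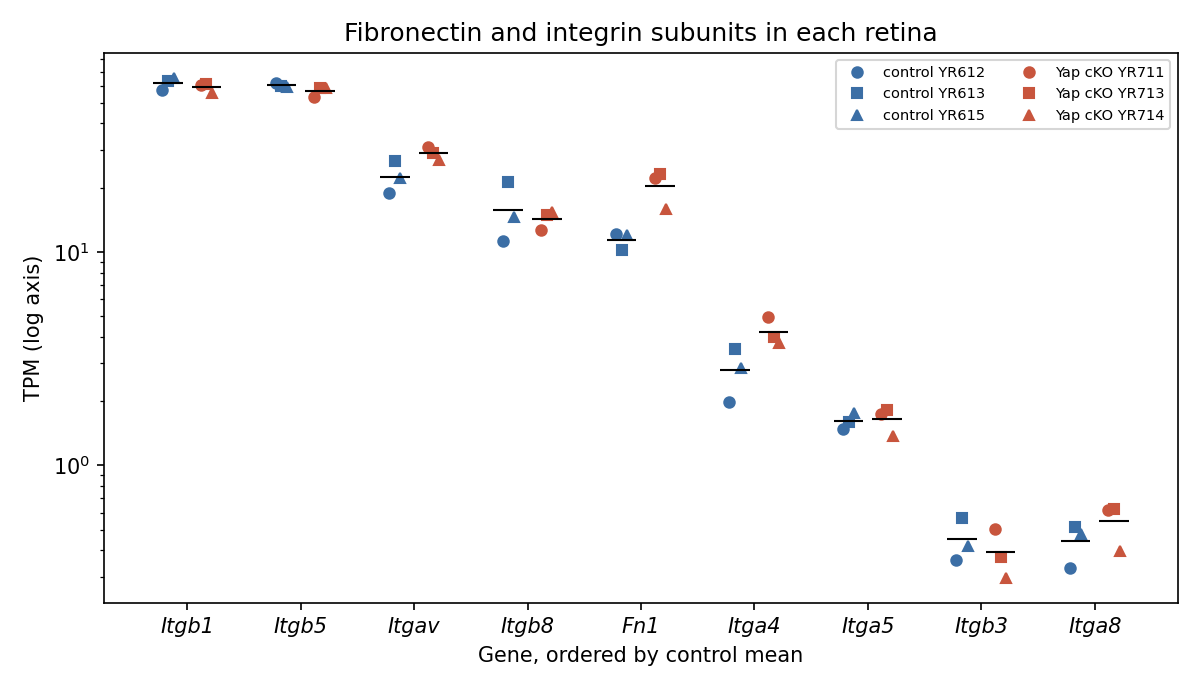
TPM (log axis) of fibronectin and the 8 integrin subunits in each of the 3 control (blue) and 3 *Yap* cKO (red) retinas, with genes ordered by the control mean and horizontal lines at the group means. *Fn1*, *Itga4* and *Itgav* separate upwards in the *Yap* cKO retinas and *Itgb5* downwards, while *Itgb1* and *Itgb5*, near 60 TPM, are the most abundant of the 9.

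*Fn1* had 12.1 TPM in YR612, 10.2 TPM in YR613 and 11.97 TPM in YR615, the control retinas. In the *Yap* cKO retinas it had 22.1 TPM in YR711, 23.1 TPM in YR713 and 15.8 TPM in YR714. The lowest *Yap* cKO retina, YR714, thus stood above the highest control retina. These levels rest on 818 to 1075 counts in the control retinas and 1265 to 2350 counts in the *Yap* cKO retinas. Its log2 fold change was 0.77 ± 0.14 (SE), with a 95% interval of 0.46 to 1.08 and an adjusted p of 0.0332 (edgeR). Relative to the control mean, log2 TPM was higher by 0.95 in YR711, by 1.02 in YR713 and by 0.47 in YR714. With an exonic length of 11685 bases, the gene was above 98.6% of the log2 fold changes in the highest class of length. With each retina corrected for the length trend, the log2 fold change was 0.58 and the adjusted p 0.0532, and the call was lost. With this correction 0 of the 9 genes and 0.935% of all tested genes were called. The call was also lost when YR612, YR615, YR711 or YR713 was left out, with adjusted p-values of 0.105, 0.151, 0.0799 and 0.169 and log2 fold changes of 0.84, 0.80, 0.71 and 0.67, and with sex as a covariate (0.78, adjusted p = 0.0548). It was kept without YR613 (adjusted p = 0.0216) and without YR714 (adjusted p = 0.00243). Without both of these retinas, a setting chosen after seeing the data, the log2 fold change was 0.82 (adjusted p = 0.000116). The controls that remain there both have a negative length trend and the *Yap* cKO retinas both a positive one, so genotype and length trend cannot be told apart in that setting. The sign of the length trend as a covariate, also chosen after seeing the data, gave *Fn1* a log2 fold change of 0.73 (adjusted p = 0.0134, edgeR). The call was kept there, unlike with the length correction. Between retinas with the same sign of the length trend, *Fn1* was higher in YR711 and YR713 than in YR613, and higher in YR714 than in YR612 and YR615. This order already follows from the lack of overlap between the groups and is no separate test of the length trend.

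The alpha subunits, which set the ligand that a receptor binds, differed in level by over an order of magnitude. *Itgav*, the alpha v subunit that pairs with beta 1, beta 3, beta 5 and beta 8 among others, was the most abundant. It had 18.8, 26.5 and 22.2 TPM in the control retinas and 30.9, 28.9 and 26.996 TPM in the *Yap* cKO retinas, so that YR714 lay just above control YR613. Its log2 fold change was 0.31 ± 0.11 (SE, 95% interval 0.069 to 0.54, adjusted p = 0.153, edgeR) and it was not called. With the length correction the log2 fold change was 0.16 (adjusted p = 0.247), and without YR613 it was 0.42 (adjusted p = 0.0297), under the fold change minimum. *Itgav* lies on chromosome 2, plus strand, from 83724397 to 83806916, and its exonic length is 10744 bases.

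*Itga4* encodes the alpha 4 subunit, best known from leukocytes, and had 1.98, 3.50 and 2.87 TPM in the control retinas. In the *Yap* cKO retinas it had 4.95, 3.98 and 3.74 TPM. The lowest *Yap* cKO retina again stood just above control YR613. Its log2 fold change of 0.55 ± 0.18 (SE, 95% interval 0.14 to 0.95) had an adjusted p of 0.141 (edgeR), and with the length correction the log2 fold change was 0.32 (adjusted p = 0.218). Without YR613 the log2 fold change was 0.72 (adjusted p = 0.0357), but both group means stayed under the 5 TPM minimum. Its exonic length, 13978 bases, is the longest of the 9 genes. Leukocyte markers did not separate the groups. The summed TPM of 12 microglial markers, *Ptprc* among them, was 214 to 259 in control retinas and 209 to 239 in *Yap* cKO retinas, and 0 of the 12 were called.

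*Itga5*, the alpha subunit of the main fibril-assembling receptor, stayed low in both groups. It had 1.47, 1.597 and 1.77 TPM in the control retinas and 1.75, 1.82 and 1.36 TPM in the *Yap* cKO retinas, and the groups overlapped fully. The log2 fold change was -0.03 ± 0.17 (SE), with a 95% interval from -0.42 to 0.36, and its sign changed when YR615 or YR714 was left out. The interval leaves room for a change of either sign under 1.5-fold. *Itga8*, the alpha 8 subunit known from smooth muscle and kidney mesenchyme, had between 0.33 and 0.51 TPM in control and between 0.40 and 0.62 TPM in *Yap* cKO retinas. These levels rest on 16 to 40 counts per retina, and the log2 fold change of 0.25 ± 0.26 (SE) had an interval of -0.33 to 0.84. That interval includes both 0 and the log2 fold change of *Fn1*.

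The beta subunits summed to more TPM than the alpha subunits in every retina. *Itgb1*, the shared partner of alpha 4, alpha 5, alpha 8 and alpha v, had 57.4, 63.0 and 65.3 TPM in the control retinas and 60.5, 61.0 and 55.7 TPM in the *Yap* cKO retinas. The TPM of the groups overlapped. The log2 fold change was -0.12 ± 0.07 (SE, 95% interval -0.29 to 0.042, adjusted p = 0.346, edgeR), so the interval holds no change as large as 1.5-fold. *Itgb5*, which pairs only with alpha v, had 61.7, 60.1 and 59.0 TPM in the control retinas and 53.0, 58.5 and 58.3 TPM in the *Yap* cKO retinas. All 3 *Yap* cKO retinas were below all controls, YR713 and YR714 by less than 1 TPM. Its log2 fold change of -0.15 ± 0.08 (SE, 95% interval -0.33 to 0.035) had an adjusted p of 0.315 (edgeR).

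*Itgb8*, which likewise pairs only with alpha v, is known for freeing TGF-beta from its latent form. It had 11.2, 21.3 and 14.5 TPM in the control retinas and 12.6, 14.9 and 15.4 TPM in the *Yap* cKO retinas. All *Yap* cKO retinas lay inside the control range, which was set by YR612 at the bottom and YR613 at the top. The control coefficient of variation, 32.9%, was the highest of the 9 genes. The log2 fold change was -0.18 ± 0.19 (SE, adjusted p = 0.592, edgeR) and stood at percentile 4.64 of the genes in its class of length. With the length correction it was -0.31 (adjusted p = 0.292), and without YR613 it was 0.080. *Itgb3*, the beta 3 subunit of platelets and of growing vessels, had 12 to 23 counts per retina, or 0.30 to 0.57 TPM, and its log2 fold change of -0.27 ± 0.29 (SE) had an interval of -0.93 to 0.39.

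**Figure D2:**
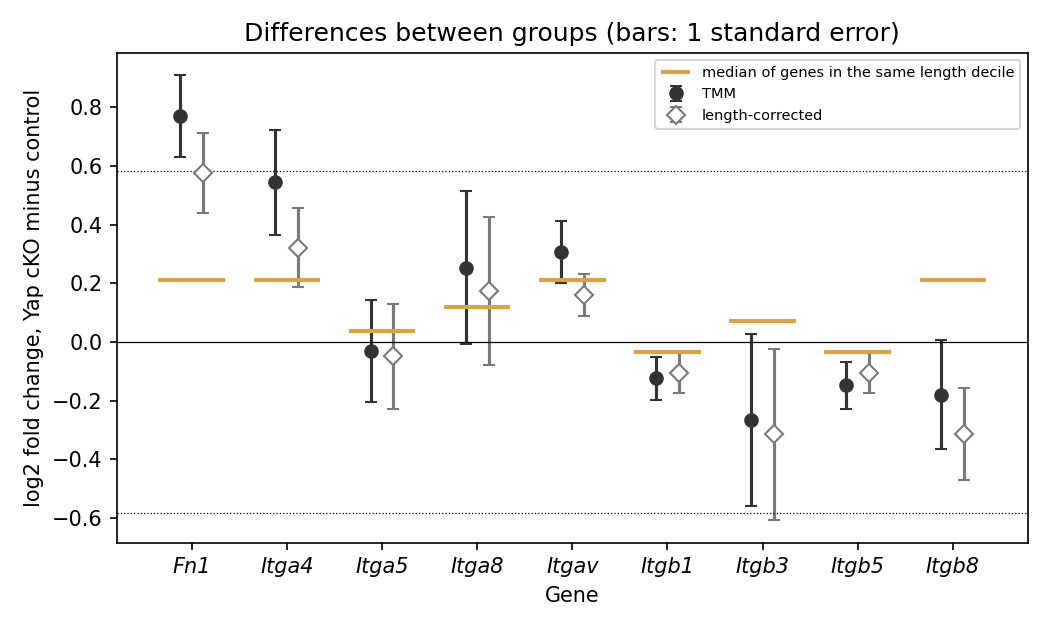
Log2 fold change (*Yap* cKO minus control) of each of the 9 genes, with TMM normalization (filled circles) and with each retina corrected for gene length (open diamonds), and bars of 1 standard error. Dotted lines mark a fold change of 1.5, and short orange lines mark the median of all tested genes in the same class of gene length (10 classes), which is 0.21 for *Fn1*, *Itga4*, *Itgav* and *Itgb8*.

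By mean TPM the order in control retinas was *Itgb1*, *Itgb5*, *Itgav*, *Itgb8*, *Fn1*, *Itga4*, *Itga5*, *Itgb3* and *Itga8*. Control values of *Itgb1* and *Itgb5* overlapped, as did those of *Itgav* and *Itgb8*, of *Itgb8* and *Fn1*, and of *Itgb3* and *Itga8*, so the places of these neighbours are not set apart by their spread. The other neighbours in the order did not overlap in control retinas. In *Yap* cKO retinas *Fn1* stood above *Itgb8*, with 20.4 ± 3.94 TPM (SD, n = 3) against 14.3 ± 1.47 TPM for *Itgb8*, and all 3 *Fn1* values were above all *Itgb8* values. *Itga8* and *Itgb3* exchanged the last places, again with overlapping values.

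**Figure D3:**
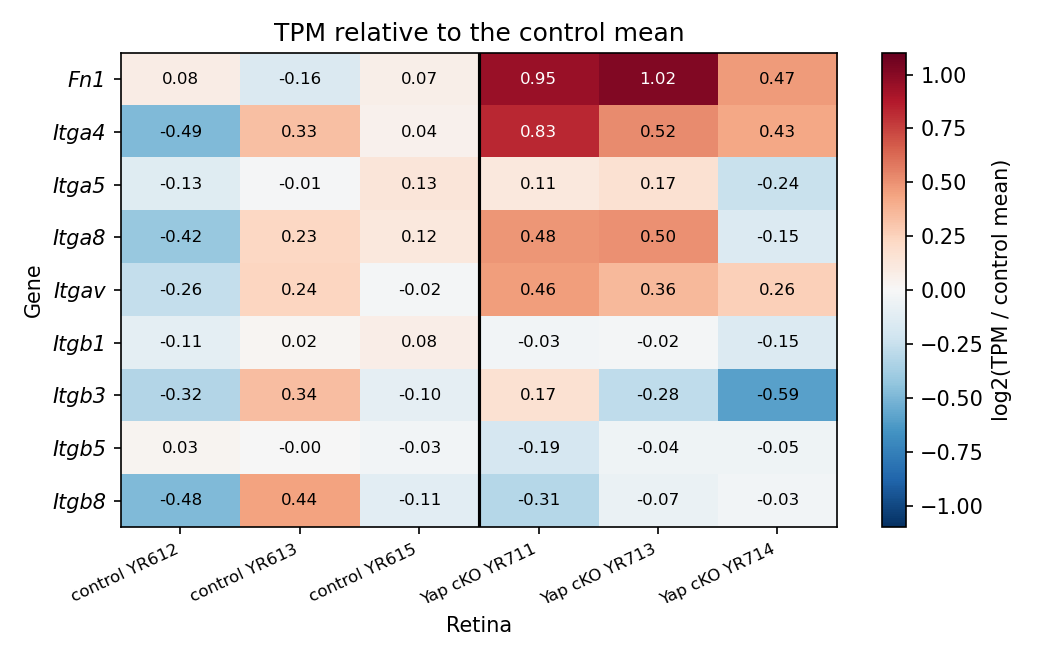
Log2 of TPM over the control mean for each gene (rows) in each retina (columns), with the value printed in each cell and the black line between control and *Yap* cKO retinas. *Fn1*, *Itga4* and *Itgav* are above 0.2 in all 3 *Yap* cKO retinas, and control YR613 is also above 0.2 for *Itga4*, *Itga8*, *Itgav*, *Itgb3* and *Itgb8*.

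Summing the subunits gives the receptor side as a whole. The 4 alpha subunits summed to 27.4 ± 4.78 TPM (SD, n = 3) in control retinas and to 35.4 ± 2.87 TPM where *Yap* was deleted, without overlap, while the 4 beta subunits summed to 138 ± 7.20 and 130 ± 4.16 TPM, with overlap. The 8 subunits together came to 166 ± 11.96 TPM (control) and 166 ± 4.03 TPM (*Yap* cKO). The composition within each side also differed little. *Itgav* made up 82.4% ± 0.976 of the alpha TPM in control and 81.9% ± 1.104 in *Yap* cKO retinas, and *Itgb1* made up 44.8% ± 1.87 and 45.3% ± 2.41 of the beta TPM. The log2 ratio of *Fn1* over *Itgb1* was -2.25, -2.62 and -2.45 in the control retinas and -1.45, -1.40 and -1.81 in the *Yap* cKO retinas, a difference of 0.88 without overlap. The log2 ratio of *Itgav* over *Itgb1* differed by 0.44, also without overlap. With 3 retinas against 3, the exact permutation test cannot give a two-sided p below 0.1. That smallest p was reached by the alpha sum, by the alpha over beta ratio (difference 0.47), by both ratios over *Itgb1*, and by *Fn1* over the 8 subunits (0.82). The adjusted value over the 13 quantities compared was 0.26, so none passed. The exact permutation p was 0.2 for the beta sum and for *Fn1* over *Itgav*, whose difference was 0.44, and 1 for the sum of all 8 subunits. These ratios set long genes such as *Fn1* and *Itgav* against *Itgb1*, whose exonic length is 4081 bases, so the length trend enters them, and no corrected ratio was computed.

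Of the 18 other integrin subunits, 14 were tested and 0 were called by edgeR, against 0.796% of all tested genes. An unadjusted p under 0.05 was reached by 4 of them and by 21.4% of all tested genes. The median log2 fold change of the 14 was 0.0076, and limma-voom and DESeq2 also called 0. The lowest p was that of *Itga9*, the alpha subunit of a beta 1 receptor known from lymphatic valves. It had 5.89, 6.55 and 6.51 TPM in the control retinas and 5.33, 4.53 and 4.09 TPM in the *Yap* cKO retinas. The groups did not overlap, and the log2 fold change was -0.50 ± 0.12 (SE, adjusted p = 0.0713, edgeR). With the length correction *Itga9* was called lower (-0.59, adjusted p = 0.0204), whereas *Fn1* was not called. *Itgb4*, the hemidesmosome subunit, was next, with a log2 fold change of -0.89 (adjusted p = 0.135) at 11 to 32 counts per retina.

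Among 20 other ligands of these integrins, 19 were tested, 2 were called and both were lower in *Yap* cKO retinas. Of all tested genes 0.585% were called lower. This list too was chosen with earlier results of these data known. *Vcam1*, the cell-surface ligand of alpha 4 beta 1, had 7.81, 9.26 and 9.39 TPM in the control retinas and 6.55, 5.25 and 4.82 TPM in the *Yap* cKO retinas (log2 fold change -0.73, adjusted p = 0.0265, edgeR). *Ccn2*, a matricellular protein and a known YAP target, had 55.9, 38.7 and 72.4 TPM in the control retinas and 16.6, 16.1 and 18.8 TPM in the *Yap* cKO retinas (-1.76, adjusted p = 0.00479). The groups did not overlap for either gene. *Tnc*, a matrix glycoprotein that interferes with adhesion to fibronectin, had 12.2, 14.8 and 12.8 TPM in the control retinas and 17.7, 18.9 and 18.3 TPM in the *Yap* cKO retinas. With a log2 fold change of 0.41 ± 0.086 (SE) and an adjusted p of 0.0539 it was not called. *Ccn1*, the relative of *Ccn2*, was not called either (-1.38, adjusted p = 0.0624). The median over the 19 ligands was -0.08.

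Of 28 genes for integrin activation and adhesion adaptors, which include the proteins that bind beta tails and link them to actin, 27 were tested and 0 were called by edgeR, DESeq2 or limma-voom. Their log2 fold changes lay between -0.32 and 0.24 with a median of -0.03, and 1 had an unadjusted p under 0.05, against 21.4% of all tested genes. That gene was *Vcl*, which encodes vinculin, with a log2 fold change of -0.23 ± 0.093 (SE) and an adjusted p of 0.204. *Parvb*, encoding beta-parvin, followed with 0.16 (adjusted p = 0.24).

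Among 20 co-receptors and partners of fibronectin in matrix assembly, 19 were tested and 3 were called, all lower in *Yap* cKO retinas. Of all tested genes 0.585% were called lower. This list was chosen with earlier results of these data known, so its count is a description. *Fbn1*, which encodes the microfibril protein fibrillin, had 8.11, 9.998 and 7.51 TPM in the control retinas and 3.90, 3.79 and 3.03 TPM in the *Yap* cKO retinas (log2 fold change -1.31, adjusted p = 0.00223, edgeR). *Fbln1*, encoding the fibronectin-binding fibulin, had 53.5, 36.0 and 41.9 TPM in the control retinas and 2.29, 10.7 and 2.01 TPM in the *Yap* cKO retinas (-3.15, adjusted p = 0.0231). *Lgals3*, a galectin that binds matrix sugars, was lower by a log2 fold change of -1.94 (adjusted p = 0.00999). The collagen genes *Col1a2* (-2.16, adjusted p = 0.00236) and *Col5a1* (-1.84, adjusted p = 0.0104) passed the adjusted p but were under 5 TPM in both groups. The list's median log2 fold change was -0.31, against 0.0017 over all tested genes. Of its 19 tested genes 13 were negative, while 50.3% of all tested genes were positive.

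**Figure D4:**
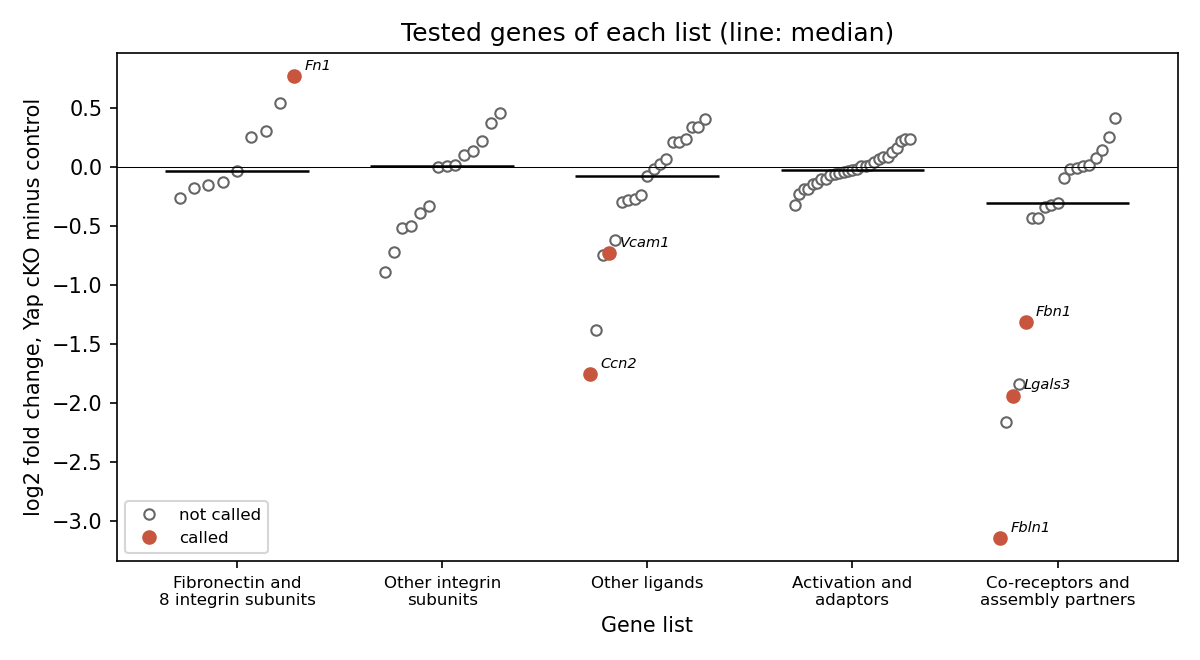
Log2 fold change (*Yap* cKO minus control) of every tested gene in 5 lists, with filled red points for called genes and a line at each list's median. *Fn1* is the 1 called gene above 0, and the called ligands and assembly partners lie below 0.

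Several lists of cell type markers moved with the groups. The counts called below stand beside 0.796% of all tested genes. The summed TPM of 12 Müller glia markers was 7240 to 7468 in control and 6388 to 6841 in *Yap* cKO retinas, with 0 of 12 called. Of their log2 fold changes 4 were positive and 8 negative. *Glul*, with the largest mean TPM of the list (3017 in control, 2711 in *Yap* cKO retinas), overlapped between the groups. Without overlap 2 of the 12 were lower and 1 was higher, *Kcnj10* (log2 fold change 0.28), against 9.04% and 15.2% of all tested genes. Markers of endothelial cells overlapped between the groups (241 to 250 against 211 to 272 TPM, 0 of 12 called), as did those of pericytes and mural cells (113 to 119 against 98.9 to 127 TPM, 0 of 11 called). Connective tissue fibroblast markers fell outside each other's range, with 46.1 to 50.3 TPM in control and 10.4 to 15.7 TPM in *Yap* cKO retinas. Of the 10 fibroblast markers, 6 were tested and 2 were called, *Fmod* and *Ogn*, both lower. Their control means of 24.6 and 10.6 TPM were the largest of the list and weigh most in its sum. *Col1a2* was lower too but under 5 TPM, while *Col1a1* (log2 fold change 0.076), *Col3a1* (-0.0042) and *Pdgfra* (-0.049) hardly differed. *Dcn*, *Lum* and *Dpt* were at or below 1.48 TPM in every retina. Melanin pigment cell markers lay at 81.1 to 86.6 against 23.3 to 56.3 TPM (*Pmel* called of 8). Pigment epithelium markers were at 356 TPM in YR711, 545 TPM in YR713 and 885 TPM in YR714, against 834 to 882 TPM in the controls, with 0 of 8 called. The sums for ciliary non-pigmented epithelium markers overlapped (330 to 349 against 301 to 369 TPM). Of the 8 tested, 6 did not overlap between the groups, 5 of them lower, with *Optc* called, and 1 higher, *Aqp1*, the most abundant of the list (log2 fold change 0.29, not called). Over all tested genes 9.04% were lower and 15.2% higher without overlap in TPM. Of 6 astrocyte markers *Aldh1l1* was called lower, with sums of 190 to 191 against 155 to 177 TPM. The list did not move as a whole. *S100b* was higher in every *Yap* cKO retina (log2 fold change 0.12, not called), *Pax2* was positive (0.17) and *Pdgfra* hardly differed. *Aqp4*, also in the Müller glia list, weighs most in the sum, with means of 83.1 (control) and 67.8 TPM (*Yap* cKO) and overlapping groups. The sums for red blood cells were 44.8 to 79.8 against 32.5 to 49.3 TPM, those for lens 4.14 to 19.9 against 1.97 to 4.73 TPM, and those for rods 51470 to 54865 against 48445 to 52613 TPM, with 0 genes called. The part of these cell types in the results for *Fn1*, the integrins and the matrix genes was not tested. In whole retinas, fewer cells of a type and less RNA per cell cannot be told apart.

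The genes whose log2 TPM followed that of *Fn1* most closely over the 6 retinas, among 11993 tested genes with a mean of at least 5 TPM, were *Ifit3* (Pearson's r = 0.998), *Ttc27* (0.995), *Gbp3* (0.988), *Pi4kb* (0.983) and *Got2* (0.980). The retinas fall into 2 groups and share their libraries across genes, so these values are a description. *Ifit3* and *Gbp3* are interferon-inducible genes, with log2 fold changes of 0.42 (adjusted p = 0.092) and 0.88 (adjusted p = 0.0674), neither of them called. The other 3 genes had log2 fold changes between 0.051 and 0.11. No integrin subunit was among these genes.

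Promoter windows of 300 bases (250 before and 50 after the start, RefSeq, GRCm38.p6) were found for 7 of the 9 genes, all except *Fn1* and *Itgb3*. The TEAD-type hexamer GGAATG, searched on both strands, occurred in 1 of the 7 windows, that of *Itgb1* (chromosome 8, 128685404 to 128685703, plus strand), where it begins 7 bases before the start. It occurred in 14.7% of all 32851 windows. A match is a description of these letters and not of binding.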

How the data were processed

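Retinas were grouped by the genotype in the sample labels. The deposited values are fragment counts per gene, without normalization. Stranded read pairs were aligned by the authors to GRCm38 (STAR 2.7.3a, per the submitters' processing notes) and counted exonic fragments with featureCounts 1.6.2, strand setting 2 and annotation release 98. Counts were tested in edgeR 4.0.16 (R 4.3.3) with filterByExpr, TMM and the quasi-likelihood test, at an adjusted p of 0.05, a fold change of 1.5 and 5 TPM. SE was the log2 fold change over the root of the F statistic. TPM came from counts and exonic lengths. The length correction fitted a loess curve (span 0.3) of relative log2 CPM (prior count 2) on length in each retina. The fits were tested on simulated data. limma 3.58.1 and DESeq2 1.42.0 served as alternatives, of which 18 were planned and 2 added after seeing the data. Sex, read from the counts (1 female and 2 male control, 2 female and 1 male *Yap* cKO mice), entered 1 of them.

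The 9 genes, the 4 pathway lists and the 12 marker lists were chosen with earlier results of these data known. Named genes were the 9 members, *Yap1*, the called genes of each pathway list with the 2 lowest p among those not called, defining markers of lists that moved, and the 5 genes most like *Fn1*. Symbols came from the reference annotation (55154 genes matched) and transcripts from GENCODE M21. The labels give each retina as a separate animal code, so n counts animals.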

Additional observations from a re-analysis of the deposited data

How the results depend on the processing

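Leaving out YR613 and YR714 together, and length-trend class as a covariate, were chosen after seeing the data. The 132 genes called became 257 (111 higher, 146 lower) with DESeq2, 291 (123, 168) with the likelihood ratio test, 369 (156, 213) without the filter, 245 (98, 147) with length correction and likelihood ratio test, 214 (74, 140) with the length-trend class, 1049 (597, 452) without YR613 and YR714, and 38 (without YR615) to 516 (without YR613; 352, 164) with 1 retina left out. Of the 9 genes, 0 were called with the length correction under either test or with sex as a covariate, and 0 to 1 with 1 retina left out. For single genes 18 alternatives were compared, which include the 2 added ones and leave out those without the TPM or the fold change minimum. *Fn1* stayed positive under all 18, between 0.57 and 0.91, and was called under 11, both added ones among them. With length correction and the likelihood ratio test its adjusted p was 0.00472 at a log2 fold change of 0.57, under the fold minimum. Without YR613 and YR714 together, *Itga5* (0.044), *Itgb3* (0.048) and *Itgb8* (0.011) turned positive. With 1 retina left out, *Itga5* lay between -0.11 and 0.066, positive without YR615 (0.038) or YR714, *Itgb8* between -0.35 and 0.080, positive without YR613, and *Itgb3* between -0.47 and -0.088. *Itga4*, *Itga8*, *Itgav*, *Itgb1* and *Itgb5* kept their sign and stayed uncalled under all 18. Other integrin subunits gave 1 call with the length correction under either test. Other ligands gave 4 with DESeq2, the likelihood ratio test, no filter, length correction with likelihood ratio test and the length-trend class, and 1 to 3 with 1 retina left out (1 without YR612, YR615 or YR713). Assembly partners gave 5 without the TPM minimum and 1 to 3 with 1 retina left out (1 without YR612 or YR615). The causes were not tested. No paired analysis was possible because the groups share no replicate numbers. *Itga8* and *Itgb3* rest on 12 to 40 counts per retina.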
